A study of Mus musculus with 74 samples.

Results

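The genes described here are 10 enzymes of threonine, serine and glycine metabolism, namely Tdh, Gcat, Gldc, Amt, Phgdh, Psat1, Psph, Shmt1, Shmt2 and Mthfd2. They were taken by name from RNA-sequencing tables of mouse embryonic stem (ES) cells, which hold 37620 entries under 34236 gene symbols. All 10 genes were present. Tdh was listed under 2 Ensembl identifiers, so that 11 entries carried the 10 genes, and all 11 entries passed the filter on low counts in each of the 15 comparisons.

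Polyadenylated RNA was sequenced in 35 libraries of 12 conditions, all from ES cells of the E14Tg2a line or its derivatives, grown in medium with foetal calf serum and non-essential amino acids. Nanog SunTag cells carry rtTA, a dCas9 fused to a peptide array and induced by doxycycline (Dox), an scFv-GFP-VP64 activator that binds this array, and a gRNA for the Nanog gene, while Nanog/Otx2 SunTag cells carry gRNAs for Nanog and Otx2. Each guide set was 1 derived clone from each of the parental clones C1 and C2, cultured for 3 days with or without LIF and with or without Dox. Nanog SunTag cells gave 3 uninduced and 2 induced libraries with LIF, and 3 uninduced and 3 induced libraries without LIF. Nanog/Otx2 SunTag cells gave 3 and 4 libraries with LIF, and 4 and 4 without it. The 44iN cells lack endogenous Nanog and hold a Nanog transgene induced by Dox. They were kept in LIF with Dox, for 24 h without Dox, or long term without Dox, with 2 libraries each. The unmodified Tg2a line, kept in serum with LIF, gave 3 libraries. In SunTag cells each condition holds libraries of both clones. Where 1 clone gave 2 libraries of a condition, and in 44iN and Tg2a cells, the labels do not say that these came from separate cultures, so that part of the spread behind the p-values may be technical. Both C1 libraries of induced Nanog SunTag cells without LIF carry the same title, number included, while the column names number them 1 and 2. They differed by more than counting noise, were used as 2 libraries, and are called C1-1 and C1-1b here.

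These enzymes supply glycine and one-carbon units on folate, which cells use to build nucleotides and to methylate. Tdh, a mitochondrial dehydrogenase, and Gcat turn threonine into glycine and acetyl-CoA. Gldc and Amt are the P and T proteins of the glycine cleavage system, which splits glycine and passes a carbon to tetrahydrofolate. Phgdh, Psat1 and Psph make serine from a glycolytic intermediate. Shmt1 in the cytosol and Shmt2 in mitochondria convert serine to glycine, and Mthfd2 oxidises the folate that results in mitochondria. Mouse ES cells are known for high Tdh and for their need for threonine.

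In mm9 (NCBIM37) the gene models, exons and introns included, lie as follows. The threonine genes are Tdh (ENSMUSG00000021953) at chr14:64111184-64127929, minus strand, and Gcat at chr15:78861304-78873988, plus strand. The glycine cleavage genes are Gldc at chr19:30172939-30249908, minus strand, and Amt at chr9:108199184-108203902, plus strand. The serine synthesis genes, all on the minus strand, are Phgdh at chr3:98117093-98143913, Psat1 at chr19:15979168-16021827 and Psph at chr5:130271434-130293129. Shmt1 at chr11:60601606-60625220, Shmt2 at chr10:126954195-126959491 and Mthfd2 at chr6:83255685-83267600 are also on the minus strand. The second Tdh identifier, ENSMUSG00000093611, is paired with the symbol by the tables and was not placed here. The Gcat model also holds a separate transcript at its downstream end, which the Gcat counts may include.

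RefSeq promoter windows, from 250 bases before to 50 bases after a start site, were matched by symbol for 9 of the 10 genes, all but Tdh. The 10 windows, of which Psat1 has 2, are from GRCm38.p6, and each occurred exactly 1 time in mm9. Those of Shmt2 (chr10:126959451-126959750), Psph (chr5:130293080-130293379) and Gldc (chr19:30249882-30250181), all minus strand in mm9, are shown because Shmt2 and Psph fell on LIF withdrawal in both guide sets and Gldc fell with Dox in LIF. Capitals mark the 50 bases from the start site on.
Shmt2: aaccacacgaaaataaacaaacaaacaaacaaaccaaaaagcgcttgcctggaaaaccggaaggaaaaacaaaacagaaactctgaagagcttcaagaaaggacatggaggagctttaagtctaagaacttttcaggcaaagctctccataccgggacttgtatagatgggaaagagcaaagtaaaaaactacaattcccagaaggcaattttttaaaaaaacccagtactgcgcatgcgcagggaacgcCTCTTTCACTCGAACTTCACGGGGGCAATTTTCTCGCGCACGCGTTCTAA
Psph: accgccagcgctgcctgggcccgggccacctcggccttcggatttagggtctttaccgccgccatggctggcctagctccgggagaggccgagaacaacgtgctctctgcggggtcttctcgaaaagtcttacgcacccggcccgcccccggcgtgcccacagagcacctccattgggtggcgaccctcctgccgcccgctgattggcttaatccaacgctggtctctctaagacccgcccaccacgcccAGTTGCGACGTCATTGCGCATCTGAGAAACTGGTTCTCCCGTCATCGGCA
Gldc: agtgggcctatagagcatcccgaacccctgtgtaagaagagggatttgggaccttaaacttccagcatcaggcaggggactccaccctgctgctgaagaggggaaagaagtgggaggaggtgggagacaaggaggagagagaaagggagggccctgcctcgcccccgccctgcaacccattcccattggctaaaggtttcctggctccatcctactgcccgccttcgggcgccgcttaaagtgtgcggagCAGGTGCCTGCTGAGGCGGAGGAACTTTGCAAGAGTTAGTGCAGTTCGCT

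Short motifs were looked for on both strands, TGATGNAA of ATF4, TTCNNNGAA of STAT factors with its stricter form TTCCNGGAA, AAGGTCA of Esrrb and the octamer ATTTGCAT. A TTCNNNGAA match, TTCCCAGAA, began 55 bases before the Shmt2 start in the sequence above, in 1 of the 9 genes, against 8.3% of all 32851 promoter windows. AAGGTCA was found in the Amt window alone, on the reverse strand, against 4.72% of all windows. TGATGNAA, ATTTGCAT and TTCCNGGAA, found in 3.97%, 1.74% and 1.15% of all windows, had no match in these genes. A match describes letters, and binding was not tested.

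Total estimated counts per library ranged from 6107512 to 92244655 with a median of 29298745. Nanog followed the labels, with 75226 to 93813 normalised counts (counts divided by a library size factor) in induced and 21941 to 29487 in uninduced Nanog SunTag cells in LIF, and 228 to 276 in long-term 44iN cells. Otx2 was at 3214 to 3806 in induced Nanog/Otx2 cells in LIF against 736 to 1062 in uninduced ones. Naive pluripotency genes, which define ES cells, were summed over 13 genes, Nanog among them. The sum was 129347 to 143466 in uninduced Nanog SunTag cells in LIF and 34867 to 39071 without LIF. None of the 13 was at 0 in any condition. Nanog SunTag libraries C1-2 (no LIF, no Dox) and C1-1b (no LIF, Dox) stood apart from the rest of their groups in several members, as described at the end. Where leaving both out changed a call or list count in Nanog SunTag cells by the main fits, the result without them is given.

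Tdh changed most on LIF withdrawal. Its entry ENSMUSG00000093611, which held most of the Tdh reads and is called the major entry here, was at 2761, 3738 and 4411 normalised counts in the 3 uninduced Nanog SunTag libraries with LIF, and at 529, 428 and 786 in the 3 without LIF. In uninduced Nanog/Otx2 cells it was at 5337, 5887 and 6823 with LIF and at 517, 608, 888 and 1067 without. The groups did not overlap in either guide set, and the C2-derived libraries were the highest in all of these groups. The fitted log2 fold change on LIF withdrawal was -2.66 ± 0.24 (SE, edgeR adjusted p = 1.12e-05) in Nanog SunTag cells and -3.00 ± 0.19 (adjusted p = 1.56e-08) in Nanog/Otx2 cells. In bulk RNA, fewer cells that express a gene and less RNA per cell cannot be told apart.

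The minor entry, ENSMUSG00000021953, was at 707, 245 and 1253 normalised counts with LIF and at 23.6, 27.1 and 87.3 without it in uninduced Nanog SunTag cells. It fell by 4.04 ± 0.71 (SE) on the log2 scale there (adjusted p = 0.000992) and by 1.88 ± 0.27 in Nanog/Otx2 cells (adjusted p = 3.79e-05), where it went from 307, 228 and 278 to 64.9, 51.5, 109 and 73.5. The minor entry held 6.14% to 22.1% of all Tdh counts in uninduced Nanog SunTag cells in LIF, 3.73% to 5.44% in Nanog/Otx2 cells in LIF without Dox and 17.9% to 23.1% in Tg2a cells. The split between the entries thus differed between libraries, and its cause was not tested. With both entries summed, the log2 fold change of Tdh was -2.82 ± 0.26 in Nanog SunTag cells and -2.93 ± 0.19 in Nanog/Otx2 cells.

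**Figure D1:**
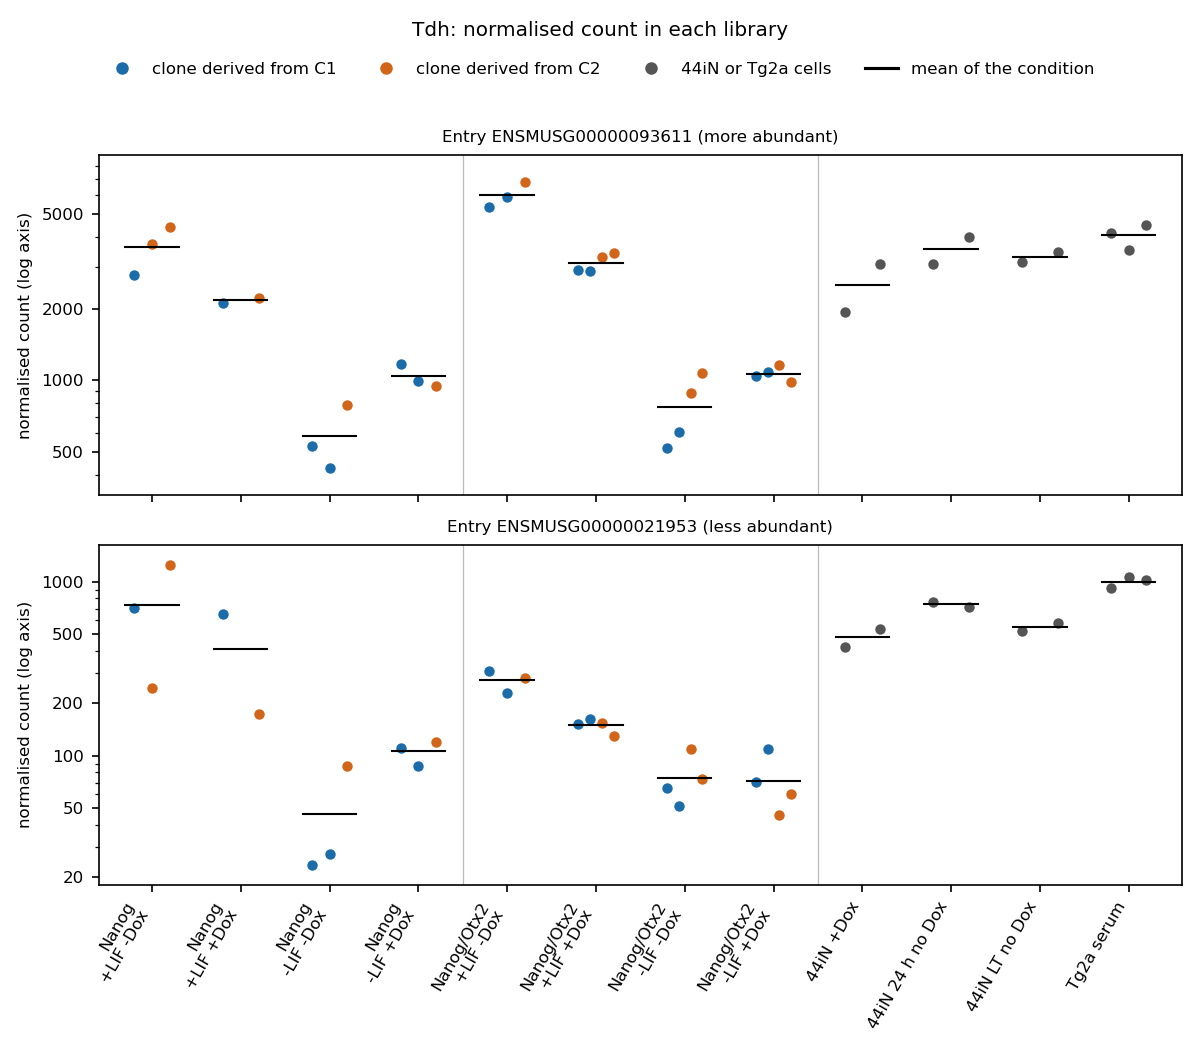
Normalised count (log axis) of the 2 Tdh entries in each of the 35 libraries by condition, with a bar at the mean. In the major entry all SunTag libraries without LIF are at or below 1175 and all libraries with LIF at or above 1943.

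The Dox effect on the major Tdh entry differed between cultures with and without LIF. With LIF, induced Nanog SunTag libraries were at 2115 and 2227, and induced Nanog/Otx2 libraries at 2902, 2876, 3296 and 3436, all below every uninduced library of their guide set. Without LIF, induced Nanog SunTag libraries were at 1175, 997 and 950, all above the uninduced ones, and induced Nanog/Otx2 libraries were at 1043, 1082, 1157 and 985, a range that overlapped the highest uninduced library. The LIF by Dox interaction, which tests the difference between both Dox effects, was 1.63 ± 0.34 on the log2 scale in Nanog SunTag cells (edgeR adjusted p = 0.0378) and 1.43 ± 0.26 in Nanog/Otx2 cells (adjusted p = 0.00283). The major Tdh entry was the 1 of 11 entries called for the interaction in each guide set, against 1.93% and 9.7% of all genes tested. In Nanog SunTag cells the call was lost when any of 9 of the 11 libraries was left out (adjusted p up to 0.132), the exceptions being uninduced C1-1 with LIF and uninduced C2-1 without LIF. It was also lost without C1-2 and C1-1b together (1.48, adjusted p = 0.156). The call held in Nanog/Otx2 cells in each of the 15 omissions.

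Taken alone, the Dox effect on this entry without LIF was 0.87 ± 0.23 in Nanog SunTag cells (edgeR adjusted p = 0.05003) and 0.51 ± 0.18 in Nanog/Otx2 cells (adjusted p = 0.0591), neither of which passed. With the clone as a block it was 0.91 ± 0.19 (adjusted p = 0.0141) and 0.55 ± 0.13 (adjusted p = 0.00493). With LIF, the Dox effect was -0.76 ± 0.26 in Nanog SunTag cells (adjusted p = 0.216) and -0.92 ± 0.18 in Nanog/Otx2 cells (adjusted p = 0.00292). LIF withdrawal in the presence of Dox still lowered the major entry, by 1.04 ± 0.25 in Nanog SunTag cells (adjusted p = 0.00914) and by 1.57 ± 0.18 in Nanog/Otx2 cells (adjusted p = 1e-05). Among the Dox effects on the minor entry, that with LIF in Nanog/Otx2 cells was called, at 151, 161, 154 and 129 in the induced libraries and -0.85 ± 0.26 (adjusted p = 0.0307), and lost this call in 6 of the 15 omissions (adjusted p up to 0.127). Of 13 naive pluripotency genes, 12 were called lower on LIF withdrawal without Dox and 10 higher with Dox without LIF in each guide set. Over all genes, 21.3% and 25.2% were called lower on LIF withdrawal, and 5.14% and 17.3% were called with Dox without LIF. Leaving out C1-2 and C1-1b gave 11 lower and 8 higher in Nanog SunTag cells. Dox with LIF called 0 of the 13 in Nanog SunTag cells (median 0.12), and 3 higher and 2 lower in Nanog/Otx2 cells (median -0.06). The summed level of the 13 was 98936 to 111096 in induced against 34867 to 39071 in uninduced Nanog SunTag cells without LIF. These sums include Nanog itself, which the guide targets, with a mean of 51805 in induced and 5916 in uninduced libraries. The part of the naive genes in the Tdh values was not tested.

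Markers of other cell states moved with LIF withdrawal as well, most of all those of formative and primed pluripotency, the states that follow the naive one. Of their entries 8 of 9 were called higher in Nanog SunTag cells (median log2 fold change 4.00), and in Nanog/Otx2 cells 10 of 10. Their summed level was 8185 to 11782 normalised counts with LIF and 91797 to 112194 without it in uninduced Nanog SunTag cells, and 48614 to 55043 without LIF but with Dox. Of 8 extraembryonic endoderm markers, 6 were called lower in Nanog SunTag cells, or 3 without C1-2 and C1-1b, and 2 were called lower and 1 higher in Nanog/Otx2 cells. Their summed level was 4164 to 7925 with LIF and 3822 to 4284 without it in uninduced Nanog SunTag cells. Of 8 mesendoderm markers 3 were tested and 2 called higher in each guide set, with a sum over all 8 of 93.6 to 213 with LIF and 449 to 659 without it in uninduced Nanog SunTag cells. Mesenchymal markers were called higher in 3 of 5 entries in Nanog SunTag cells, or 2 without C1-2 and C1-1b, and 4 of 5 in Nanog/Otx2 cells. Their sums were 147 to 522 with LIF and 374 to 477 without it in uninduced Nanog SunTag cells. In each guide set 3 trophoblast markers were called higher and 1 lower, of 7 and 6 tested, and 2 neural markers higher and 1 lower, of 5 and 4. Without C1-2 and C1-1b, 2 trophoblast markers were called higher in Nanog SunTag cells. The sums in uninduced Nanog SunTag cells were 1483 to 2412 with LIF and 1833 to 2166 without it for trophoblast, and 1221 to 3225 and 2073 to 4471 for neural markers. The part of these markers in the values of the members was not tested.

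Gcat, which completes the conversion of threonine to glycine, was not called on LIF withdrawal without Dox in either guide set by edgeR as run here, but was called lower under other settings. It was at 755, 1217 and 1306 normalised counts in uninduced Nanog SunTag cells with LIF and at 914, 657 and 919 without LIF, and the groups overlapped. Its log2 fold change was -0.41 ± 0.22 (edgeR adjusted p = 0.145), with a 95% interval of -0.84 to 0.01. The change was -0.29 ± 0.15 in Nanog/Otx2 cells (adjusted p = 0.117), and with the clone as a block it passed at -0.23 ± 0.09 (adjusted p = 0.034). With the trend of counts over GC content removed from each library, Gcat was called lower in both guide sets, at -0.49 ± 0.15 (adjusted p = 0.0155) and -0.43 ± 0.11 (adjusted p = 0.00378). It also passed in Nanog SunTag cells when uninduced C1-1 with LIF was left out (-0.59 ± 0.17, adjusted p = 0.0156).

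Gldc, the glycine-splitting subunit, rose on LIF withdrawal in the presence of Dox in both guide sets, and fell with Dox in the presence of LIF in Nanog/Otx2 cells. In Nanog SunTag cells it was at 6665, 3899 and 5159 normalised counts with LIF, at 3428 and 2138 with LIF and Dox, at 7119, 5922 and 8631 without LIF, and at 5243, 5091 and 5557 without LIF but with Dox. The induced libraries with LIF were below all others. LIF withdrawal with Dox raised it by 0.96 ± 0.27 on the log2 scale (edgeR adjusted p = 0.018), a call lost when the induced C2-1 library with LIF was left out (adjusted p = 0.115).

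Gldc in Nanog/Otx2 cells was at 9435, 8124 and 5152 normalised counts with LIF, and at 5892, 5178, 3984 and 3975 with LIF and Dox. Without LIF it was at 7992, 8398, 7975 and 9164, and at 7253, 7531, 6679 and 7597 with Dox. LIF withdrawal with Dox raised it by 0.60 ± 0.16 (adjusted p = 0.00814), and Dox with LIF lowered it by 0.66 ± 0.17 (adjusted p = 0.0121), although the uninduced C2ON3 library was within the induced range. The latter call was lost without uninduced library C1ON3-1 or C1ON3-2 with LIF (adjusted p up to 0.086). In Nanog SunTag cells the same Dox effect was -0.94 ± 0.27 and did not pass (adjusted p = 0.144). LIF withdrawal without Dox gave 0.44 ± 0.23 in Nanog SunTag cells (adjusted p = 0.144) and 0.11 ± 0.17 in Nanog/Otx2 cells (adjusted p = 0.631).

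Amt, the subunit that hands the carbon of glycine to folate, was at 889 to 1171 normalised counts without LIF and 918 to 1034 with LIF in uninduced Nanog SunTag cells, with a log2 fold change of 0.05 ± 0.18 (edgeR adjusted p = 0.843). It fell by 0.58 ± 0.21 in Nanog/Otx2 cells (adjusted p = 0.0342), a call lost when any of 5 of the 15 libraries was left out (adjusted p up to 0.11). With the clone as a block the change was -0.52 ± 0.11 (adjusted p = 0.00105). The libraries without LIF split by clone, at 988 and 903 in C1ON3 and 607 and 568 in C2ON3, while those with LIF were at 1212, 1071 and 1083. Of the other glycine cleavage proteins, Gcsh, the H protein that carries the intermediate, fell by 0.54 ± 0.19 in Nanog SunTag cells (adjusted p = 0.0402, lost without C1-2 and C1-1b at 0.134) and by 0.32 ± 0.11 in Nanog/Otx2 cells (adjusted p = 0.0263). The L protein Dld was not called in either.

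The serine synthesis genes moved in different directions on LIF withdrawal. Psph, the phosphatase of the final step, was at 1837, 1934 and 1981 normalised counts with LIF and 1072, 552 and 987 without it in uninduced Nanog SunTag cells, with no overlap. It fell by 1.15 ± 0.27 on the log2 scale (edgeR adjusted p = 0.00603). Psph went from 2813, 2278 and 2028 to 1722, 1510, 1710 and 1593 in Nanog/Otx2 cells, again with no overlap, and fell by 0.58 ± 0.12 (adjusted p = 0.000751). Dox with LIF also lowered Psph in Nanog/Otx2 cells, to 1714, 1887, 1464 and 1413, by 0.54 ± 0.12 (adjusted p = 0.00432). These 3 calls held whichever library was left out.

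Phgdh, the enzyme of the first step, went the other way in Nanog/Otx2 cells, from 8687, 7294 and 7726 normalised counts with LIF to 11705, 10828, 10600 and 10685 without. The rise was 0.44 ± 0.09 on the log2 scale (edgeR adjusted p = 0.00116), and with Dox in both arms it was 0.32 ± 0.09 (adjusted p = 0.00838). Without LIF, induced Nanog/Otx2 libraries were at 8325, 8799, 8283 and 9875, all below the uninduced ones, a fall by 0.28 ± 0.09 (adjusted p = 0.0373) that lost its call in 7 of the 15 omissions (adjusted p up to 0.0977). In Nanog SunTag cells the libraries with LIF, at 2881, 5094 and 5598, and without LIF, at 6539, 3578 and 7618, overlapped, and the log2 fold change was 0.37 ± 0.30 (adjusted p = 0.336), or 0.65 ± 0.25 without C1-2 and C1-1b (adjusted p = 0.0858).

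Psat1, the aminotransferase of the middle step, was the most abundant member per length in each of the 12 conditions and was not called in any comparison. It was at 19925 to 22416 normalised counts with LIF and at 19648, 9063 and 18560 without in uninduced Nanog SunTag cells (log2 fold change -0.42 ± 0.30, edgeR adjusted p = 0.28, and -0.13 ± 0.17 without C1-2 and C1-1b, adjusted p = 0.599). The change in Nanog/Otx2 cells was 0.01 ± 0.10 (adjusted p = 0.925), with a 95% interval of -0.18 to 0.20. Dox without LIF gave -0.23 ± 0.09 in Nanog/Otx2 cells (adjusted p = 0.0981), which passed with the clone as a block at -0.22 ± 0.08 (adjusted p = 0.0441).

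Shmt2, the mitochondrial hydroxymethyltransferase, fell on LIF withdrawal in both guide sets. It was at 4742, 11786 and 9553 normalised counts with LIF and 4039, 2603 and 4345 without in Nanog SunTag cells, where the C1-1 library with LIF was close to the libraries without it. The fall was 1.26 ± 0.30 on the log2 scale (edgeR adjusted p = 0.00598). In the other guide set it went from 8432, 8763 and 8745 to 7740, 6529, 6931 and 6405, a fall by 0.36 ± 0.09 (adjusted p = 0.0047). Both calls held whichever library was left out. The LIF effect in Nanog/Otx2 minus that in Nanog SunTag cells was 0.90 ± 0.30 and did not pass (adjusted p = 0.113), whereas with the GC trend removed it was 0.81 ± 0.22 (adjusted p = 0.0346).

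Shmt1, its cytosolic counterpart, was at 5342, 5206 and 5814 normalised counts with LIF and 4564, 4401 and 5491 without in Nanog SunTag cells, a change of -0.20 ± 0.13 (edgeR adjusted p = 0.238). In Nanog/Otx2 cells it went from 6689, 6627 and 6296 to 4829, 4998, 6422 and 6130 and fell by 0.26 ± 0.09 (adjusted p = 0.031). Both C2ON3 libraries without LIF were near or within the range with LIF, and the call was lost when any of the 2 C1ON3 libraries with LIF or the 2 without LIF was left out (adjusted p up to 0.0894), without a filter on low counts, and with the libraries of both conditions alone.

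Mthfd2, the mitochondrial methylene-folate dehydrogenase, was at 5310, 4202 and 3825 normalised counts with LIF and at 4711, 1688 and 3786 without in Nanog SunTag cells (log2 fold change -0.41 ± 0.41, edgeR adjusted p = 0.452, and -0.07 ± 0.20 without C1-2 and C1-1b, adjusted p = 0.831). Dox with LIF lowered it in Nanog/Otx2 cells from 6007, 5187 and 4305 to 4182, 4275, 3198 and 3454, by 0.44 ± 0.13 (adjusted p = 0.0235). This call was lost without uninduced C1ON3-1 or C1ON3-2 or induced C2ON3-1 or C2ON3-2 with LIF (adjusted p up to 0.14). With the clone as a block Mthfd2 was also called lower with Dox without LIF, at -0.29 ± 0.09 (adjusted p = 0.0282).

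**Figure D2:**
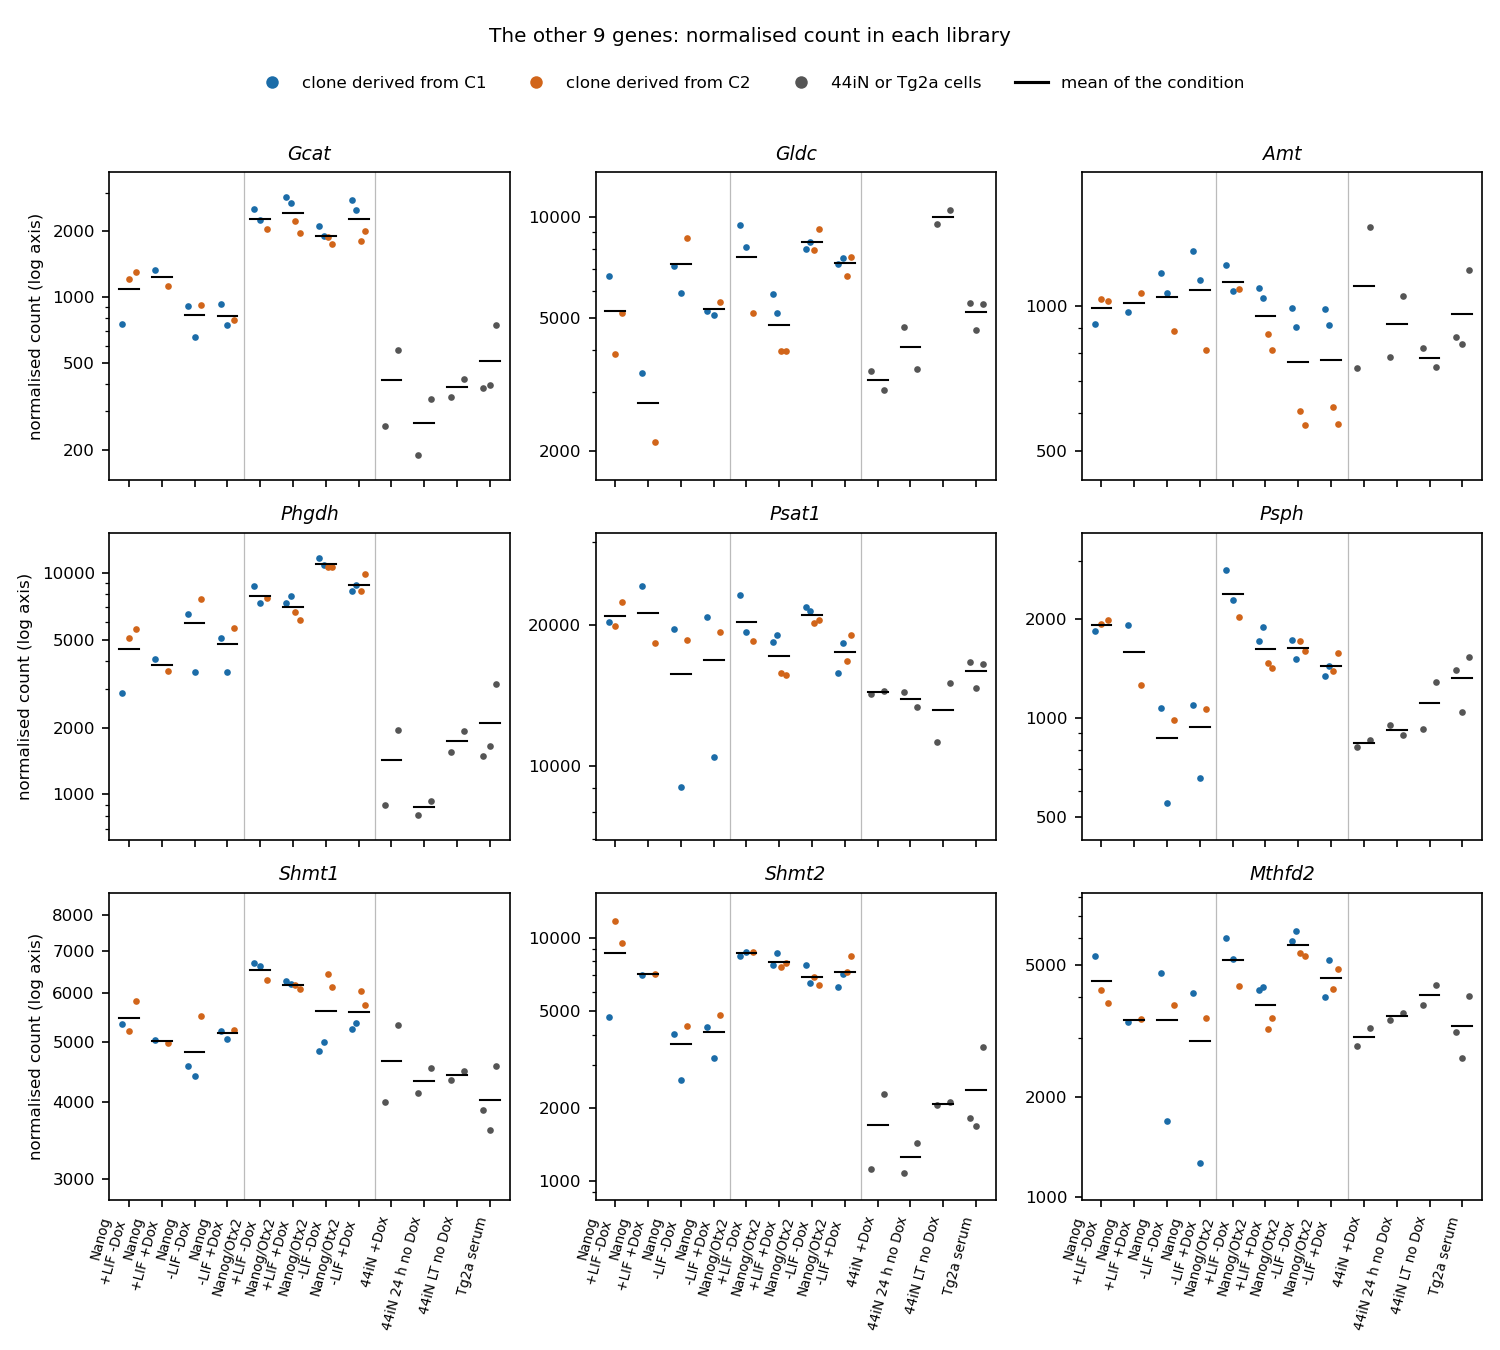
Normalised count of the 9 genes other than Tdh in each of the 35 libraries by condition, with a bar at the mean. Uninduced libraries of both guide sets have less Psph without LIF than with it, the mean of Gldc is lowest in Nanog SunTag cells with LIF and Dox, and the means of Phgdh, Shmt2 and Gcat are lower in each 44iN and Tg2a condition than in each SunTag condition.

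By counts, LIF withdrawal without Dox called 4 of 11 entries in Nanog SunTag cells, all lower, against 41.5% of all genes tested called, 21.3% lower and 20.2% higher. The count was 7 of 11 in Nanog/Otx2 cells, 6 of them lower, against 49.8% called, 25.2% lower and 24.6% higher. The 4 entries lower in Nanog SunTag cells, namely both Tdh entries, Shmt2 and Psph, were also lower in Nanog/Otx2 cells. The median log2 fold change of the entries was -0.41 and -0.29, beside -0.05 and -0.01 over all genes, and without C1-2 and C1-1b it was -0.13 in Nanog SunTag cells. With Dox in both arms, 2 of 11 entries were called in Nanog SunTag cells, against 32.6% of all genes, and 4 with the clone as a block, which added the minor Tdh entry (-1.92 ± 0.69, edgeR adjusted p = 0.0452) and Shmt2 (-0.71 ± 0.25, adjusted p = 0.0456). In Nanog/Otx2 cells 4 of 11 were called, against 36.5%, and with the block Mthfd2 (0.27 ± 0.09, adjusted p = 0.0236) and Amt (-0.35 ± 0.10, adjusted p = 0.0121) passed as well. These shares are from fits without a block, and those with the clone alone as a block are not given here. Over all genes, the clone block with GC correction raised the calls from 5089 to 7103 in Nanog SunTag cells. A block by clone and column number raised them from 5699 to 8227 in Nanog/Otx2 cells.

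Dox without LIF called 0 of 11 entries in Nanog SunTag cells, where 5.14% of all genes were called by edgeR. The major Tdh entry alone passed at an unadjusted p under 0.05, and it was called by DESeq2 (adjusted p = 0.00885). Over all genes DESeq2 called 1509 there, and edgeR 803. Dox without LIF called 1 of 11 in Nanog/Otx2 cells, Phgdh, against 17.3% of all genes, and 5 with the clone as a block, which added the major Tdh entry, Mthfd2, Psat1 and Gcat (0.27 ± 0.08, adjusted p = 0.0177). The 17.3% is from the fit without a block, and the share with the clone alone as a block is not given here. A block by clone and column number raised the calls over all genes from 2702 to 5398. Without the filter on low counts, 0 entries were called in Nanog/Otx2 cells. Dox with LIF called 0 of 11 in Nanog SunTag cells, against 0.563% of all genes. At an unadjusted p under 0.05 there were 2 entries, of which DESeq2 called Gldc (adjusted p = 0.0312). Over all genes DESeq2 called 587 there, and edgeR 88. In Nanog/Otx2 cells Dox with LIF called 5 of 11 by edgeR, against 22.9% of all genes. All 5 were lower, namely both Tdh entries, Gldc, Psph and Mthfd2. Leaving out C1-2 and C1-1b changed no count of called entries in Nanog SunTag cells other than the interaction.

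The difference between the guide sets was called for 0 of 11 entries, both for the Dox effect without LIF, against 0.0308% of all genes, and for LIF withdrawal without Dox, against 2.49%. At an unadjusted p under 0.05, 0 entries passed in the former and 3 in the latter. DESeq2 called 0 and 1 of the entries, and 41 and 856 over all genes. The widest difference was that of the minor Tdh entry on LIF withdrawal, 2.16 ± 0.71 (adjusted p = 0.104). The guide sets carry different series of library names, so levels between them cannot be told apart from that, whereas the comparisons above were made within a guide set.

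**Figure D3:**
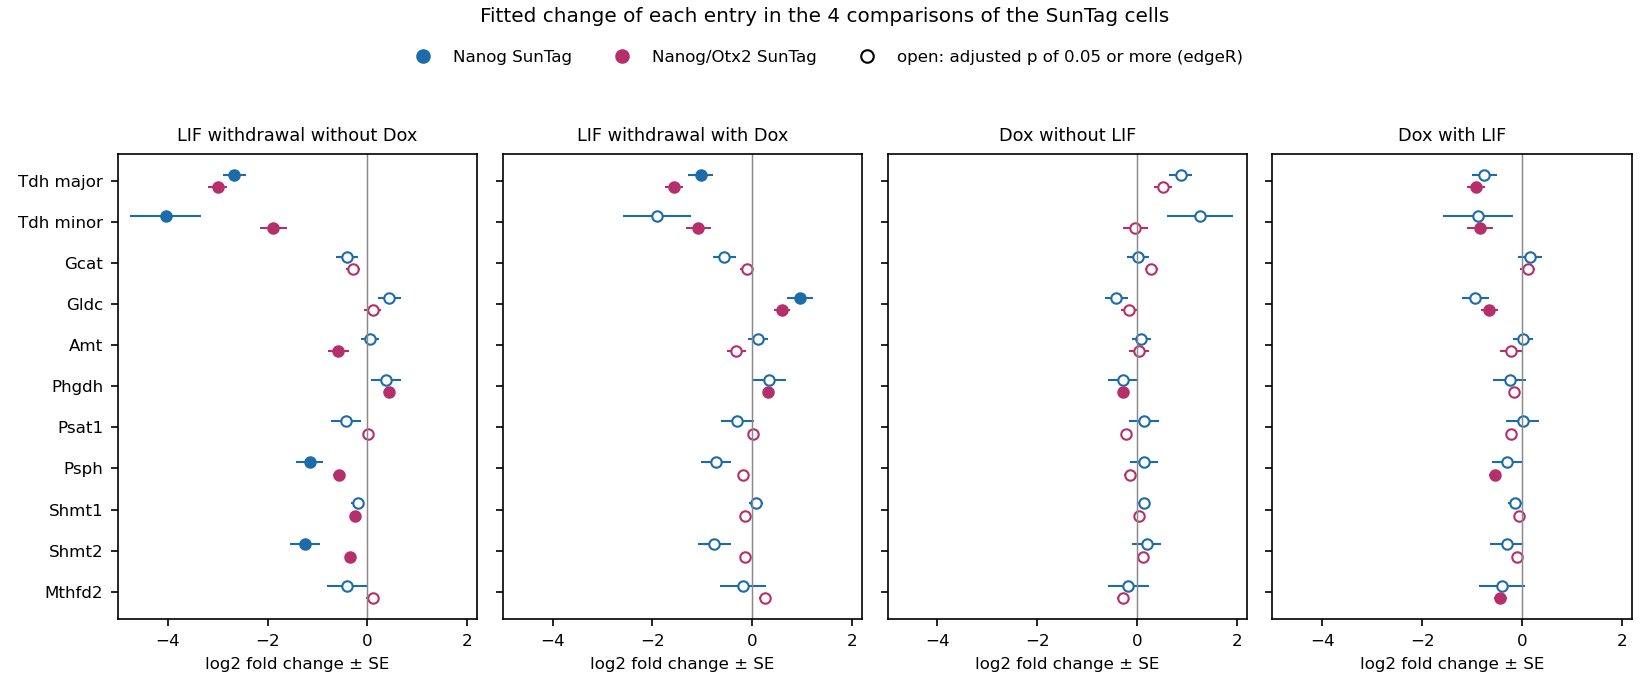
Fitted log2 fold change (± SE) of the 11 entries on LIF withdrawal without Dox, on LIF withdrawal with Dox, with Dox without LIF and with Dox in LIF, for Nanog and Nanog/Otx2 SunTag cells. Filled points have an adjusted p under 0.05. The major Tdh entry is at -2.66 and -3.00 on LIF withdrawal, and its Dox effect is above 0 without LIF and below 0 with LIF in both guide sets.

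In 44iN cells, where Nanog came from a transgene, the major Tdh entry was at 1943 and 3070 normalised counts with Dox, 3088 and 4026 after 24 h without Dox and 3149 and 3462 long term without Dox. Libraries with Dox were below all others, by a narrow margin. The log2 fold change with Dox was -0.40 ± 0.31 (edgeR adjusted p = 0.784) with a 95% interval of -1.02 to 0.21. Across genes the comparison called 0 of 14376, 0%, so that none of the 11 entries could be called. At an unadjusted p under 0.05 there were 1023 genes, DESeq2 called 141, and with the replicate number as a block Gcat (0.70 ± 0.26, adjusted p = 0.049) and Phgdh (0.70 ± 0.20, adjusted p = 0.0084) passed. By edgeR with the GC trend removed and no block, neither passed. Gcat was then at 0.31 ± 0.26 (adjusted p = 0.69) and Phgdh at 0.31 ± 0.16 (adjusted p = 0.529). The 0% above is from the fit without a block. The share of all genes called with the number block is not given here, and that fit leaves few residual degrees of freedom. When the 44iN and Nanog SunTag Dox effects in LIF were fitted jointly, 0 of 11 entries were called, against 0.307% of all genes, with 1 at an unadjusted p under 0.05. The joint test takes both Dox effects together, and gave edgeR adjusted p = 0.494 for Gldc and 0.61 for the major Tdh entry. The Nanog SunTag effects in that fit were -0.90 ± 0.29 for Gldc and -0.73 ± 0.29 for the Tdh entry. With the GC trend removed the Tdh entry passed the joint test (adjusted p = 0.044), with a Nanog SunTag effect of -0.78 ± 0.17.

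Gldc was at 9502 and 10436 normalised counts in the long-term 44iN cells without Nanog, at 3470 and 3051 with Dox, at 4689 and 3508 after 24 h without Dox, and at 5526, 4581 and 5480 in Tg2a cells. The long-term libraries were above all of these. Against Tg2a cells it was higher by 0.86 ± 0.15 on the log2 scale (edgeR adjusted p = 0.0147), and the minor Tdh entry was lower by 0.94 ± 0.17 (adjusted p = 0.0182), at 520 and 580 against 916, 1059 and 1026. These were 2 of 11 entries, against 8.61% of all genes. Both calls were lost without either long-term library or without Tg2a library 2 (adjusted p up to 0.166 for Gldc and 0.217 for the Tdh entry), and with the Tdh entries summed the difference was -0.47 ± 0.15 (adjusted p = 0.0827). Markers of extraembryonic endoderm were high in both groups, with a summed level over 8 genes of 19387 to 30710 in long-term 44iN and 14940 to 23114 in Tg2a cells against 3094 to 4089 in the other 44iN cells. Between the groups, 6 of 13 naive pluripotency genes were called lower in the long-term cells, with sums of 55726 to 59612 against 102901 to 115037 in Tg2a cells. Nanog, whose transgene was not induced in the long-term cells, is among the 13. Of 9 formative and primed genes 2 were called higher, with sums of 20204 to 23529 against 11661 to 13118, and 2 of 4 mesenchymal markers were called lower, with sums of 108 to 173 against 216 to 927. The part of these markers in the Gldc and Tdh values was not tested.

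Levels were compared per kilobase of the longest coding transcript. For both Tdh entries the length was that of the minor entry, since the major one was not placed here, so the rank of Tdh rests on it. The level of Tdh (both entries summed) was 2324 ± 611 normalised counts per kb (SD, n = 3) in uninduced Nanog SunTag cells with LIF, below Psat1 (7977 ± 515), Shmt2 (3813 ± 1579) and Phgdh (2390 ± 763) and above the other members. Without LIF it was 333 ± 116 (n = 3), the lowest of the 10. From Nanog/Otx2 cells with LIF to those without, Tdh went from 3342 ± 395 (n = 3) to 449 ± 142 (n = 4), again the lowest. In Tg2a cells it was second, at 2699 ± 253 (n = 3), after Psat1 at 6096 ± 430. Neighbours such as Tdh and Phgdh in uninduced Nanog SunTag cells with LIF did not differ beyond their spread.

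Between the highest and lowest of the 12 condition means, the minor Tdh entry varied 21.7-fold, Phgdh 12.5-fold, the major Tdh entry 10.4-fold, Gcat 9.22-fold and Shmt2 6.93-fold. Amt varied least, at 1.46-fold, followed by Psat1 at 1.61-fold and Shmt1 at 1.63-fold. The lowest means of Phgdh, Gcat and Shmt2 were in 44iN cells without Dox for 24 h, with Phgdh at 809 and 938 normalised counts. These 3 genes have transcripts of 56.8% to 57.4% GC. A smooth trend of counts over GC content put genes of 57% GC relative to genes of 49% at -1.68 to -0.31 (log2) in 44iN and Tg2a libraries, at -0.44 to 0.40 in Nanog SunTag and at 0.44 to 0.76 in Nanog/Otx2 libraries. Within these groups, 44iN Dox library 2 and Tg2a library 3, the nearest to 0 in this trend, had the highest Phgdh, at 1947 and 3166 against 899 and 1490 to 1650. The part of GC content in the levels across these cell series was not tested.

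Over the 12 condition means, Tdh was most like Klf2 (Pearson r of log2 means 0.97), Wdr20b (0.97) and Napsa (0.97) among 12846 genes. Klf2, a naive pluripotency factor, had its lowest mean, 130 normalised counts, in uninduced Nanog SunTag cells without LIF and its highest, 3875, in uninduced Nanog/Otx2 cells with LIF. Gldc was most like Ttc27 (0.92), Ap3b2 (0.91) and Arhgef3 (0.89), Shmt1 most like Ccdc51 (0.96), Tars2 (0.96) and Kifc1 (0.95), and Phgdh most like Isyna1, Tmem109 and Pkm2 (each 0.99). Among the members, Gcat was closest to Shmt2 (0.94) and Phgdh (0.94), and the minor Tdh entry and Phgdh were the most opposed (-0.75). These correlations describe 12 conditions that fall into cell series, and the series differ in the GC trend given above. The part of that difference in the correlations was not tested.

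Other genes of the pathway were taken from lists. Their counts on LIF withdrawal are read beside the 21.3% of all genes called lower and 20.2% called higher in Nanog SunTag cells, and 25.2% and 24.6% in Nanog/Otx2 cells. Of 15 tested genes of folate one-carbon metabolism other than the members, LIF withdrawal without Dox called 1 higher and 3 lower in Nanog SunTag cells, and 4 higher and 3 lower in Nanog/Otx2 cells. Folr1, a folate receptor, was at 793 to 1183 normalised counts with LIF, 300.5 to 372 without it and 565 to 977 without LIF but with Dox in Nanog SunTag cells. It fell by 1.46 ± 0.23 on LIF withdrawal (edgeR adjusted p = 0.000552) and rose by 1.24 ± 0.23 with Dox without LIF (adjusted p = 0.0101), of which the latter call was lost without C1-2 and C1-1b (1.15 ± 0.30, adjusted p = 0.129). The respective values in Nanog/Otx2 cells were -1.14 ± 0.17 (adjusted p = 5.96e-05) and 0.66 ± 0.16 (adjusted p = 0.0108). Mthfd2l, the relative of Mthfd2, rose by 1.91 ± 0.39 in Nanog SunTag (adjusted p = 0.0024) and by 1.05 ± 0.26 in Nanog/Otx2 cells (adjusted p = 0.00348) on LIF withdrawal. Aldh1l1, which oxidises formyl-folate, fell by 1.21 ± 0.30 (adjusted p = 0.00719) and 1.11 ± 0.28 (adjusted p = 0.00402).

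Of the genes that use or transport serine and glycine, 6 of 15 tested were called lower and 3 higher in Nanog SunTag cells, and 8 of 16 lower and 3 higher in Nanog/Otx2 cells, with medians of -0.70 and -0.46. Without C1-2 and C1-1b the count in Nanog SunTag cells was 4 lower and 4 higher, with a median of -0.48. Cth, which makes cysteine from cystathionine, fell by 1.52 ± 0.38 (edgeR adjusted p = 0.00797) and the transporter Slc1a5 by 1.16 ± 0.28 (adjusted p = 0.00607) in Nanog SunTag cells. Slc38a2, a neutral amino acid transporter, rose by 1.13 ± 0.20 (adjusted p = 0.00107). All 3 passed in the same direction in Nanog/Otx2 cells, and in Nanog SunTag cells without C1-2 and C1-1b (-1.27, -0.94 and 1.14). In the methionine cycle, 3 of 14 tested genes were called higher and 2 lower in Nanog SunTag cells (4 and 3 in Nanog/Otx2 cells), with Ahcy at 0.86 ± 0.18 (adjusted p = 0.00289), Srm at 0.60 ± 0.21 (adjusted p = 0.0354) and Apip at -1.76 ± 0.20 (adjusted p = 5.39e-05). In purine and thymidylate synthesis, which consumes the one-carbon units, 3 of 15 were called higher and 1 lower (6 and 2 in Nanog/Otx2 cells), with Prps2 at 0.67 ± 0.20 (adjusted p = 0.0211), Pfas at 0.63 ± 0.18 (adjusted p = 0.0137) and Dtymk at -0.90 ± 0.23 (adjusted p = 0.00793). Without C1-2 and C1-1b the methionine cycle counted 1 higher and 2 lower and purine and thymidylate synthesis 2 higher and 0 lower in Nanog SunTag cells, and the calls of Srm (adjusted p = 0.0854) and Dtymk (adjusted p = 0.0539) were lost.

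Genes of the ATF4 amino acid response, the programme known to switch on serine synthesis genes when amino acids are short, were also counted. On LIF withdrawal without Dox, 8 of 23 tested were called lower and 0 higher in Nanog SunTag cells (median -0.46), and 4 lower and 6 higher of 24 in Nanog/Otx2 cells (median 0.00). Without C1-2 and C1-1b, 8 of 24 were called lower and 1 higher in Nanog SunTag cells (median -0.21), against 13.5% of all genes called lower in that fit. Nupr1, a stress-response gene, fell by 3.28 ± 0.52 (edgeR adjusted p = 0.000497) and by 1.56 ± 0.17 (adjusted p = 3.16e-06). Ddit3 fell by 2.19 ± 0.50 in Nanog SunTag cells (adjusted p = 0.00464) and was at -0.02 ± 0.21 in Nanog/Otx2 cells (adjusted p = 0.951). Atf5 fell by 1.71 ± 0.37 (adjusted p = 0.00362) and was at -0.36 ± 0.24 (adjusted p = 0.225). Without C1-2 and C1-1b, Nupr1, Ddit3 and Atf5 were at -2.92 ± 0.34, -1.77 ± 0.30 and -1.44 ± 0.24 in Nanog SunTag cells and still passed (adjusted p up to 0.00273). When the guide sets' effects were compared by the fit, 1 of 24 genes of this list was called. Dox with LIF called 10 of 24 lower and 0 higher in Nanog/Otx2 cells, against 10% of all genes called lower.

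Nanog SunTag libraries C1-2 (no LIF, no Dox) and C1-1b (no LIF, Dox) were low in the same members. Both are of clone C1 and carry the same replicate number in the column names. Mthfd2 was at 1688 normalised counts in C1-2 against 3786 and 4711 in the other libraries of its group, and at 1266 in C1-1b against 3444 and 4103. Psat1 was at 9063 against 18560 and 19648, and at 10477 against 19335 and 20774. In C1-2, 9 of the 10 entries with a mean of at least 100 were below both other libraries, against 32.8% of all such entries, and in C1-1b 9 of 11 were, against 28.8%. Both libraries were singled out because Mthfd2, Psat1 and Psph were low in them. The counts of members therefore describe that choice and are not a test. The ATF4 list moved with them, with 18 of 21 genes below the others in C1-2 and 19 of 20 in C1-1b, and medians of -0.99 and -1.02 (log2) relative to the mean of the other libraries. Atf4 itself was at 3438 against 6708 and 7317, and Chac1, a target of ATF4, at 73.7 against 738 and 995. In the fit without both libraries, 4 entries were again called on LIF withdrawal without Dox, with the major Tdh entry at -2.47, the minor entry at -3.77, Shmt2 at -1.05 and Psph at -0.90 (log2, all lower).

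**Figure D4:**
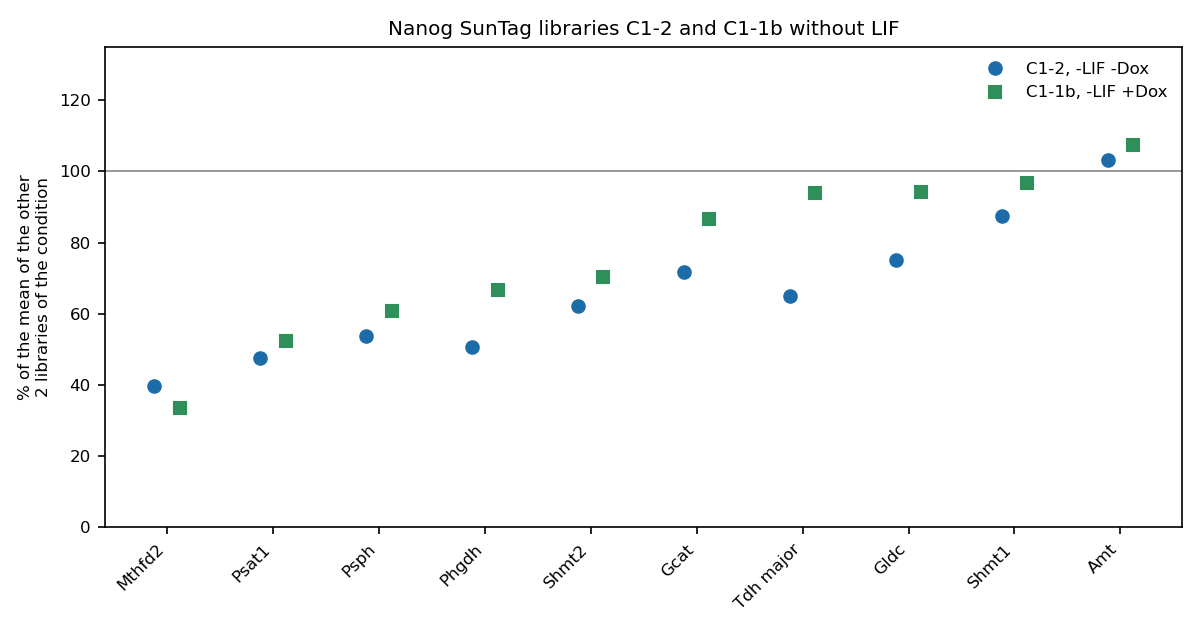
Level of each member in libraries C1-2 and C1-1b as a percentage of the mean of the other 2 libraries of the same group. Tdh is shown by its major entry. Mthfd2 is at 39.7% and 33.6%, while Amt is at 103% and 107%.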

How the data were processed

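Per the labels, stranded poly(A) RNA libraries were made with a TruSeq kit, and the submitters' processing notes name CASAVA 1.8, STAR, RSEM, DESeq2 and mm9, without their role or order. The authors deposited gene-level estimated counts (expected counts of RSEM), which were rounded, and a signal table in which the deposited counts are divided by DESeq2 size factors over all 35 libraries, called normalised counts here. Samples labelled Tg2a 2i and the ChIP and ATAC data were not analysed here.

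Groups were taken from the labels. Main tests used edgeR 4.0.16 (R 4.3.3) with TMM scaling and quasi-likelihood fits over the conditions of a cell series, on genes whose normalised count reached 10 throughout at least 1 condition. Called means a p under 0.05 after Benjamini-Hochberg adjustment over all tested genes. Intervals are 1.96 SE. The difference between guide sets was fitted on all 26 SunTag libraries. Scripts were tested on simulated counts. No 2 of 37 replicate pairs were identical or within counting noise (chi-square per degree of freedom 10.0 to 224).

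The 10 genes and the companion lists were chosen with earlier results of these data known. Named companions were up to 3 genes of each list with the largest change among those called on LIF withdrawal, or with Dox without LIF, in Nanog SunTag cells, with a mean of at least 100 and no overlap. The genes most like Tdh, Gldc, Shmt1 and Phgdh were ranked by Pearson r of log2(mean + 1). Markers of mesendoderm, trophoblast, neural and mesenchymal cells were summed as well, and their highest sum in any library was 4998 normalised counts, of neural genes.

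Clones C1 and C2 are shared cell lines and pair libraries by design. Over 12621 genes, deviations from the group means of same-clone libraries correlated with a median r of 0.172 in Nanog SunTag (over 0.1 in 16 of 22 pairs) and 0.265 in Nanog/Otx2 cells (37 of 42). Alternatives were DESeq2 1.42.0, its size factors, other filters, a clone or replicate block, GC correction, the libraries of 2 conditions alone, summed Tdh entries and omission of each library. GC correction, both with and without the clone block, the block by column names, the summed Tdh entries and the omission of C1-2 with C1-1b were chosen after seeing the data.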

Additional observations from a re-analysis of the deposited data

Results flagged for a closer look

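The major Tdh entry was singled out because its Dox effect differed between cultures with and without LIF, by 1.63 ± 0.34 on the log2 scale in Nanog SunTag cells (edgeR adjusted p = 0.0378) and by 1.43 ± 0.26 in Nanog/Otx2 cells (adjusted p = 0.00283). In both guide sets the induced libraries were below the uninduced ones with LIF, without overlap. Shmt1 was singled out for LIF withdrawal in the presence of Dox, where all libraries without LIF were above those with LIF in Nanog SunTag cells (log2 fold change 0.067 ± 0.144) and all below in Nanog/Otx2 cells (-0.16 ± 0.09). This difference between the guide sets was not tested, and neither value passed (adjusted p = 0.745 and 0.176). In 33 groups of 4 libraries, 1 for each entry and condition of that size, no library stood far enough from the others to be singled out, where chance gives about 1 in 20.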

How the results depend on the processing

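Of 165 member values, 27 were called, of which 17 passed under every alternative run and none changed sign. Among the rest, 33 passed under at least 1 alternative and 105 under none. With the clone as a replicate block, called entries went from 2 to 4 on LIF withdrawal with Dox and from 0 to 1 with Dox without LIF in Nanog SunTag cells, and from 1 to 5 with Dox without LIF in Nanog/Otx2 cells, where a block by clone and title number also gave 5 and one by clone and column number 4. The block by clone and column number gave 1 with Dox without LIF and 0 for the interaction in Nanog SunTag cells, and 1 in the joint fit with 44iN cells, and the block by number gave 2 in 44iN cells. Outside the comparisons named here the replicate block moved no count of called entries by more than 1.5 times. Calls over all genes rose under blocks too, from 2702 to 5398 for Dox without LIF in Nanog/Otx2 cells with the block by clone and column number.

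DESeq2 gave 1 entry in place of 0 for Nanog SunTag Dox effects without and with LIF and for the difference of the LIF effect between guide sets. It gave 3 in place of 1 for Dox without LIF in Nanog/Otx2 cells. Over all genes DESeq2 called 1509, 587, 856 and 3330 in these comparisons, in that order. Without a filter the Dox effects without LIF gave 1 entry in Nanog SunTag and 0 in Nanog/Otx2 cells. GC correction gave 1 in place of 0 for Dox without LIF in Nanog SunTag cells, for the guide set difference on LIF withdrawal and for the joint fit. With the clone block added it gave 5, 1 and 2 for LIF withdrawal with Dox, Dox without LIF and Dox with LIF in Nanog SunTag cells, 9, 4 and 2 for LIF withdrawal with Dox, Dox without LIF and the interaction in Nanog/Otx2 cells, and 2 each for the guide set difference on LIF withdrawal and the joint fit. In those Nanog SunTag comparisons the calls over all genes rose as well, from 5089 to 7103, from 803 to 2135 and from 88 to 912. For the Nanog/Otx2 comparisons, the guide set difference and the joint fit, the calls over all genes under this setting are not given here. The highest under any alternative in those Nanog/Otx2 comparisons were 8227, 5398 and 3407, where the main fit tested 15609 genes. The 2 conditions alone gave 1 for Dox without LIF in Nanog SunTag cells, the omission of C1-2 and C1-1b 0 for the interaction, and summed Tdh entries 1 in long-term 44iN against Tg2a cells. The causes were not tested.

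When each library was left out in turn, called entries ranged from 4 to 6, 2 to 5, 0 to 1, 0 to 0 and 0 to 1 in Nanog SunTag cells for LIF withdrawal without and with Dox, Dox without and with LIF and the interaction. In Nanog/Otx2 cells they ranged from 5 to 7, 4 to 5, 0 to 1, 2 to 5 and 1 to 2, between guide sets from 0 to 0 for Dox and 0 to 1 for LIF, in 44iN cells from 0 to 4, jointly from 0 to 0, and against Tg2a cells from 0 to 2. In 44iN cells an arm then has 1 library, assumed to vary like the others. Counts over all genes moved beyond 1.5 times mainly where few were called, from 88 to between 0 and 912 for Dox with LIF, from 803 to between 167 and 2135 for Dox without LIF and from 302 to between 32 and 1257 for the interaction in Nanog SunTag cells, from 5089 to as few as 2499 for LIF withdrawal with Dox, from 2702 to between 1756 and 5398, 3577 to between 1962 and 6519 and 1514 to between 870 and 3407 for Dox without and with LIF and the interaction in Nanog/Otx2 cells, from 5 to between 0 and 41 and from 403 to between 149 and 2369 between guide sets, from 0 to 3413 in 44iN cells, from 48 to between 3 and 1932 jointly and from 1286 to between 19 and 3155 against Tg2a cells. Depth limits the minor Tdh entry without LIF most, where it had as few as 23.6 normalised counts.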

Other observations

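Amt levels without LIF divided by clone. In Nanog SunTag cells without LIF, C1 libraries were at 1171 and 1064 uninduced and 1298 and 1133 induced, and C2 libraries at 889 and 811. In Nanog/Otx2 cells without LIF, C1ON3 libraries were at 903 to 988 and C2ON3 libraries at 568 to 617, with or without Dox. With LIF, Nanog SunTag clones did not divide in this way, at 918 and 970 in C1 and 1024 to 1062 in C2. The difference between clones was not tested.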
